A study of Homo sapiens with 7 samples.

Results

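The genes described here are 56 genes of the long arm of human chromosome 21 (21q), named one by one in a list that runs roughly from the centromere to the telomere. The list was selected on these data, by the counts of line 1 against parental cells, because genes of this arm were lower in edited line 1 than in parental cells and because SLC37A1 was low in both edited lines. The values of line 1 against parental cells are therefore a description, with no test. All 56 symbols were found among the 57773 genes of the count table, and 49 of them passed the filter on low counts that left 18160 genes for testing. Those 49 are read as measured genes, not as the whole list, since CXADR, JAM2, APP, TIAM1, CBR3 and PDE9A had too few counts to test and SLC5A3 is listed at 0 counts, although the authors' FPKM table holds values for it.

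The cells were K562, a line from a human chronic myelogenous leukemia, in which the LSD1 gene (KDM1A) carries a C-terminal GFP tag. LSD1 is an enzyme that removes methyl groups from histone H3 lysine 4 at enhancers and promoters. Parental cells had wtLSD1-GFP on every allele (3 libraries), and edited lines 1 and 2 (2 libraries each) had 2 alleles of Y391K-LSD1-GFP and 1 allele of wtLSD1-GFP, so all groups shared the tag. No treatment is named in the labels, they do not say if each line is a clone or a pool, nor are separate cultures named for the libraries of each group, which means that p-values measure the spread between these libraries only, and that spread may be technical.

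Chromosome 21 is the smallest human autosome, and an extra copy of it causes Down syndrome, so the output of its genes has long been read as a question of gene dosage. The arm carries a cluster of cytokine receptor genes, the oxidative stress enzyme SOD1, the kinase DYRK1A, the calcineurin inhibitor RCAN1 and a number of factors for chromatin, ribosomes and protein turnover. K562 cells have a rearranged karyotype with copy number changes on many chromosomes. DNA was not measured in these files, so fewer copies of a gene and less transcript from each copy cannot be told apart, nor can fewer cells with a transcript and less RNA per cell.

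Total counts were 35841302 to 72577827 per library, and 3 counts corresponded to 0.0412 to 0.0814 CPM (counts scaled to library size, with sizes adjusted by the trimmed mean of M values, TMM), a floor that covers counting error only. Log2 CPM of parental libraries 1 and 2 correlated at 0.988 across genes, which are not independent replicates, and parental 3 correlated with them at 0.967 and 0.965. All 10 markers of K562 and erythroid cells were measured, with summed levels of 1914.6 to 3927.2 CPM in parental, 4190.2 to 6575.3 CPM in line 1 and 1854.4 to 2954.6 CPM in line 2. That sum was higher in both line 1 libraries than in any other library, and its part in the results below was not tested. Of the 8 lymphoid and the 8 stromal and endothelial markers, 2 each passed the filter, with summed levels of 2.67 to 9.09 CPM and 1.29 to 3.91 CPM over all libraries. CD3D and COL1A1 made up most of these sums, and LUM stood at 0.

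Across the 49 measured genes the median log2 fold change of line 1 over parental cells was -0.38, a ratio of 0.771, beside a median of -0.01 over all 18160 genes. The change was below 0 for 44 of the 49 genes, against 51.0% of all genes. Both line 1 libraries lay below all 3 parental libraries for 30 of the 49 genes, against 16.3% of all genes. With 0.05 as the threshold for the adjusted p (edgeR), 4 were lower (SLC37A1, CRYZL1, IFNGR2 and BRWD1), beside 1.33% of all genes, and 0 were higher, beside 0.419%. At an unadjusted p under 0.05, 21 were lower and 0 higher, against 8.05% and 5.4% of all genes. Since this comparison chose the genes, these counts describe the list and are no evidence about it.

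Line 2 was not used to choose the genes, apart from SLC37A1, but it is compared with the same 3 parental libraries. There the median over the 49 genes was 0.11, a ratio of 1.08, again beside -0.01 over all genes, and 18 of 49 were below 0 against 50.8% of all genes. It was 0.17 without line 2 library 1, 0.06 without parental 1 and -0.02 without line 2 library 2, so its sign rested on the libraries used. By the quasi-likelihood test of edgeR, adjusted over all genes by Benjamini-Hochberg, DOPEY2 and RCAN1 fell, 2 of the 48 genes other than SLC37A1, beside 4.48% of all genes, and 46 did not pass. SLC37A1 was below the threshold too, but its line 2 value had a part in its choice. None rose, beside 1.34% of all genes. At an unadjusted p under 0.05, 6 were higher and 5 lower, SLC37A1 included, against 8.65% and 12.8% of all genes. DESeq2 and limma-voom each called 1 higher, and 2 were called higher with no filter on low counts. Both line 2 libraries lay above every parental library for 12 genes and below for 8, against 18.5% and 20.9% of all genes. Line 2 over line 1 had a median of 0.44, and both line 2 libraries were above both of line 1 for 35 genes, against 25.2% of all genes. Line 1 takes part in this comparison too, so its values for the listed genes carry no test.

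**Figure D1:**
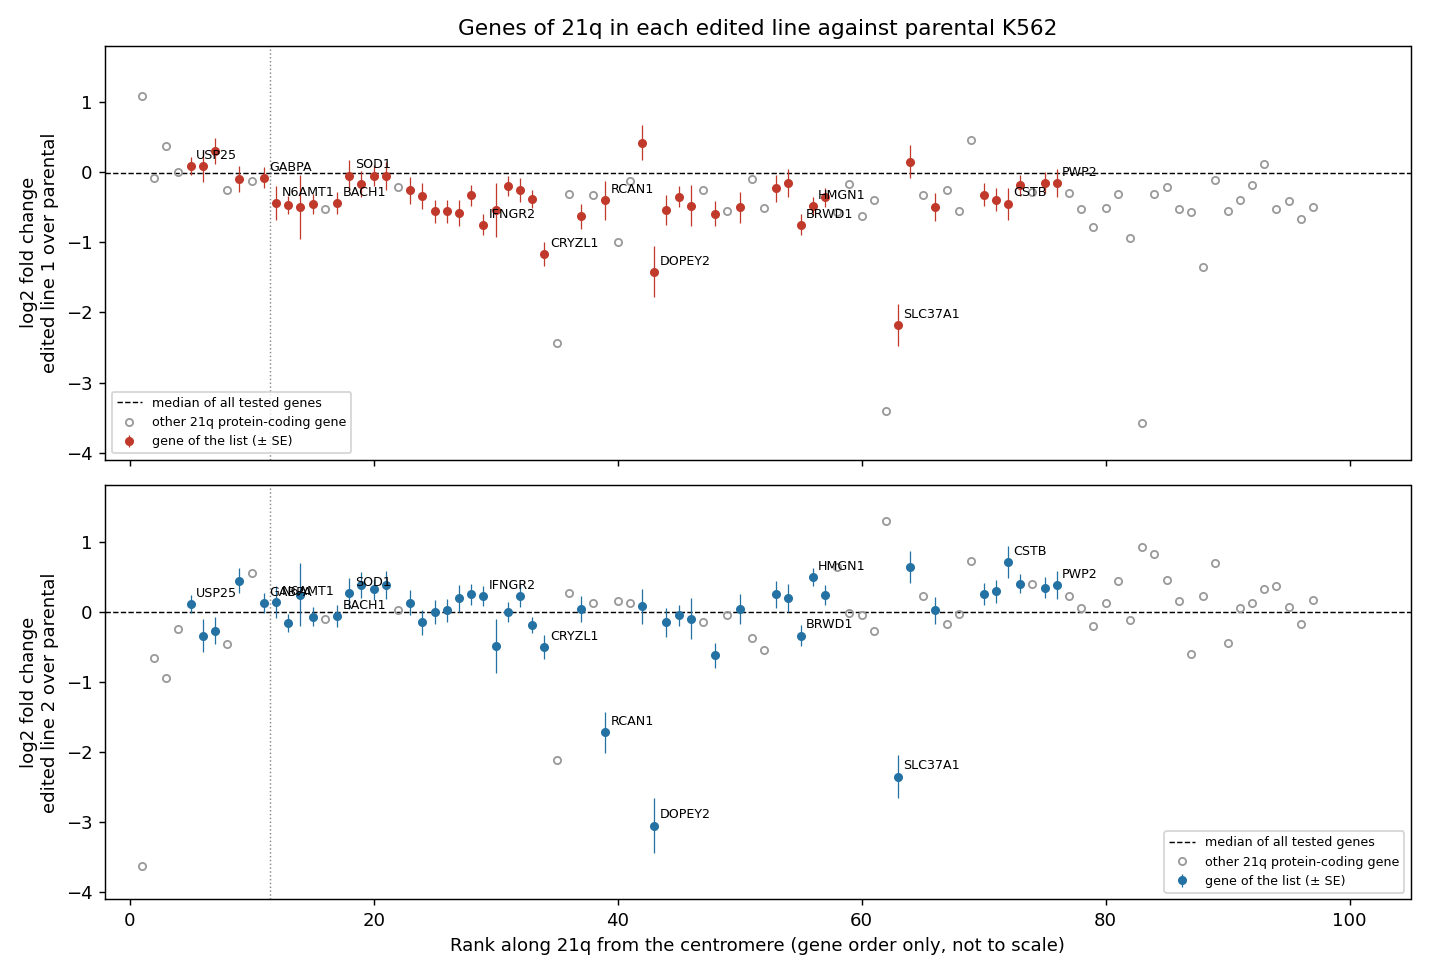
Fitted log2 fold change of each edited line over parental cells (y axis) for 49 listed genes (filled, ± SE) and 48 other protein-coding 21q genes of at least 2 CPM (open), by rank from the centromere (x axis, order only), with the dotted line just before N6AMT1 and the dashed line at the median of all tested genes. In line 1 the points right of the dotted line lie mostly below 0 (42 of 44 listed genes), and in line 2 they scatter around 0 with SLC37A1, DOPEY2 and RCAN1 far below.

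The lower level in line 1 did not run along the whole arm. The 5 measured listed genes nearest the centromere, USP25, BTG3, C21orf91, MRPL39 and GABPA, had a median of 0.09 and log2 fold changes of -0.10 to 0.30. From N6AMT1 outward the median of the 44 genes was -0.42, a ratio of 0.748, and 42 were below 0. CBR1 at 0.42 and WDR4 at 0.15 were the exceptions. The first 5 genes past that point, N6AMT1, LTN1, RWDD2B, USP16 and BACH1, had values of -0.50 to -0.44. The profile was uneven further out, and the next listed genes, SOD1, SCAF4, MIS18A and URB1, stood at -0.05, -0.17, -0.05 and -0.05, near the inner genes. The place of the split was chosen after the values were seen. In each of 17 settings, the 16 alternatives included, the outer median (-0.42 to -0.30) was below the inner one (-0.05 to 0.15). These settings draw on the same libraries and the same split, so they cannot test its place.

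The 48 other protein-coding genes of 21q with a mean of at least 2 CPM, which the list does not name, gave the same picture by position in line 1. The 6 on the centromeric side of N6AMT1 had a median of -0.04 in line 1. The 42 on the telomeric side had a median of -0.45, with 40 below 0, and the 21 of these beyond PWP2, the last gene of the list, had a median of -0.51. In line 2 the 42 outer genes had a median of 0.12 and the 6 inner genes of -0.56. Line 1 values picked this arm, and the split was placed after the values were seen, so these 48 genes are no separate evidence. Over the 97 protein-coding genes of chromosome 21 together the line 1 median was -0.38, the lowest of 23 chromosomes. The others ran from -0.12 (chromosome 8) to 0.18 (chromosome 19). The 49 listed genes are among the 97, and line 1 values chose them, so this rank is a description and no evidence. In line 2 chromosome 21 stood at 0.08, within the -0.21 to 0.15 of all chromosomes.

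For the 44 genes from N6AMT1 outward the median log2 ratio to the parental mean was -0.39 and -0.41 in the line 1 libraries, -0.02, -0.02 and 0.04 in parental 1 to 3, and 0.01 and 0.16 in line 2. The line 1 libraries gave like values and stood apart from all others, while those of line 2 differed, with library 2 the highest. Among the 49 genes, 45 and 38 lay below the parental mean in line 1 libraries 1 and 2, and 38 did so in both, where 37.7% of all genes did. Line 1 chose the genes, and the split was placed after the values were seen, so these line 1 values are a description and no evidence.

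**Figure D2:**
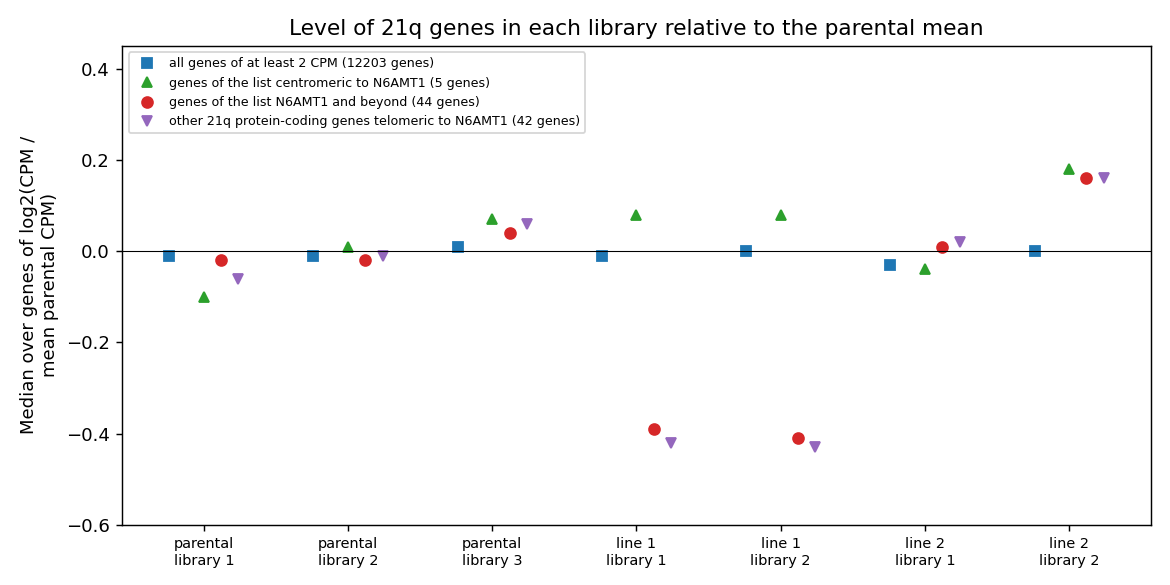
Median over genes of the log2 ratio of CPM to the parental mean (y axis) in each of the 7 libraries (x axis), for 4 gene sets. The outer 21q genes, listed (circles) and not listed (inverted triangles), stand at -0.43 to -0.39 in the line 1 libraries, while the 5 inner genes stand at 0.08 in both and all genes lie near 0 everywhere.

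SLC37A1 (ENSG00000160190), a sugar-phosphate transporter of the endoplasmic reticulum membrane, was the member with the lowest line 1 value and was low in both lines. Its level was 34.7, 36.0 and 20.6 CPM in parental 1 to 3, 7.35 and 6.11 CPM in line 1, and 6.91 and 4.98 CPM in line 2. All 4 edited libraries were below all 3 parental libraries, and the lines overlapped each other. Group means were 30.5 ± 8.55 CPM (SD, n = 3), 6.73 ± 0.879 CPM (SD, n = 2) and 5.95 ± 1.37 CPM (SD, n = 2), or 0.221 and 0.195 times the parental mean. The log2 fold changes were -2.18 (SE 0.30) in line 1 and -2.35 (SE 0.30) in line 2. These values chose the gene and carry no test. Without parental 3, the lowest of its group, they were -2.37 and -2.55. The authors' deposited table, which sets all edited libraries against parental, gives SLC37A1 a log2 fold change of -2.25 (lfcSE 0.26), and 2 of the 56 genes, SLC37A1 and DOPEY2, have an adjusted p under 0.05 there among 437 of 21213 genes.

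The other measured members of its family, all encoded outside chromosome 21, did not share this in line 1. SLC37A4, the glucose-6-phosphate transporter of the liver and kidney, had log2 fold changes of 0.08 and -0.08 in lines 1 and 2, and SLC37A3 of -0.11 and -0.45. SLC37A2 fell in line 2, from 1.42 to 1.84 CPM in the parental libraries to 0.234 and 0.255 CPM (log2 fold change -2.73, adjusted p 0.0387 in edgeR), and stood at 2.23 and 0.544 CPM in line 1.

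DOPEY2 (ENSG00000142197, now DOP1B), whose yeast counterpart acts in traffic between endosomes and the Golgi, was lower in line 2 than anywhere else. Parental 1 to 3 stood at 51.5, 50.5 and 27.6 CPM, line 1 at 19.8 and 12.4 CPM, and line 2 at 6.65 and 3.65 CPM. The 3 groups did not overlap, with line 1 between the others. Group means were 43.2 ± 13.5 (SD, n = 3), 16.1 ± 5.22 (SD, n = 2) and 5.15 ± 2.12 CPM (SD, n = 2). In line 2 DOPEY2 fell by a log2 fold change of -3.05 (SE 0.39, adjusted p 0.00306 in edgeR). It passed in 14 of 16 alternatives, with adjusted p from 3.71e-32 to 0.162, and missed on the log2(FPKM + pseudocount) scales (FPKM, fragments scaled to transcript length and library size). In line 1 its value was -1.42 (SE 0.36).

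RCAN1 (ENSG00000159200), which binds and inhibits the phosphatase calcineurin, was lowest in line 2. Parental 1 to 3 stood at 29.7, 22.3 and 15.7 CPM, line 1 at 15.9 and 18.3 CPM, and line 2 at 5.83 and 7.87 CPM. Line 1 overlapped the parental range, and line 2 lay below every other library. RCAN1 fell in line 2 by a log2 fold change of -1.72 (SE 0.29, adjusted p 0.0102 in edgeR), with adjusted p of 2.14e-09 to 0.15 over 16 alternatives and a pass in 12. The call was lost without line 2 library 1 (-1.52), without line 2 library 2 (-1.96) and on both FPKM scales. Line 1 stood at -0.40 (SE 0.28) against parental, and line 2 at -1.32 against line 1.

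The calcineurin subunits themselves are encoded on other chromosomes. PPP3CA, a catalytic subunit, fell in line 2 from 41.4, 46.0 and 28.0 CPM to 17.3 and 15.2 CPM (log2 fold change -1.24, adjusted p 0.014 in edgeR). Line 1 was at 19.4 and 21.9 CPM, a log2 fold change of -0.90 that did not pass (adjusted p 0.0971 in edgeR). The other 3 subunits tested, PPP3CB, PPP3CC and PPP3R1, did not pass in either line. All 4 were below 0 in both lines, with medians of -0.53 in line 1 and -0.24 in line 2. At an unadjusted p under 0.05 in edgeR, 2 were lower in line 1 and 1 in line 2, against 8.05% and 12.8% of all genes.

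Promoter sequences of SLC37A1 and DOPEY2 are shown because these genes had the lowest values, from the RefSeq table for GRCh38.p14, a later build than the GRCh37 of the files. Each window runs from 250 bases before to 50 bases after an annotated start. The sequences below are on the plus strand, at chr21:42499372-42499671 and chr21:42513602-42513901 for SLC37A1 and chr21:36156574-36156873 for DOPEY2.
SLC37A1 window 1: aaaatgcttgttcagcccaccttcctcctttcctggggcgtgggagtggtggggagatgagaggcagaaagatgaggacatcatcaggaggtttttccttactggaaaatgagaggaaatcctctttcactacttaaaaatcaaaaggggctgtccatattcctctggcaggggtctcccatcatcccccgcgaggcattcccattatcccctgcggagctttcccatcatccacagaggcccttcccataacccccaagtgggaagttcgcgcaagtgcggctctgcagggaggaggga
SLC37A1 window 2: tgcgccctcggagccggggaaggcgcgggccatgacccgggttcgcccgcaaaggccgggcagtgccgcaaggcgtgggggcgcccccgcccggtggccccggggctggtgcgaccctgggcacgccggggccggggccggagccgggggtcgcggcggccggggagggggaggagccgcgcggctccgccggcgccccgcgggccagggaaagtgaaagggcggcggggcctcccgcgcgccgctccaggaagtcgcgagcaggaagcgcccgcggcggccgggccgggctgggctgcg
DOPEY2: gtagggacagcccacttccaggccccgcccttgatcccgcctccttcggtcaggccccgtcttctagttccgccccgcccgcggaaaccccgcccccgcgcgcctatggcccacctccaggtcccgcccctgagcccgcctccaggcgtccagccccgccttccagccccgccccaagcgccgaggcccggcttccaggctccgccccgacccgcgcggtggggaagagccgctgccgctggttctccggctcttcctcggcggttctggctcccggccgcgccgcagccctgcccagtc
The upstream SLC37A1 window had 53.7% G and C and 7 CpG sites, the downstream one 83.3% and 48 sites, and the DOPEY2 window 76.0% and 34 sites. Windows of the listed genes had a median of 68.0% against 58.7% over all windows. Searched on both strands, none of the 3 windows held AGATAA (the core bound by GATA factors), CCGGAAG (bound by ETS factors) or AATCAC (the core of the GFI1 motif), which says only that these letters are not in these windows. RefSeq windows were matched for 41 of the 56 genes, 68 windows in all.

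**Figure D3:**
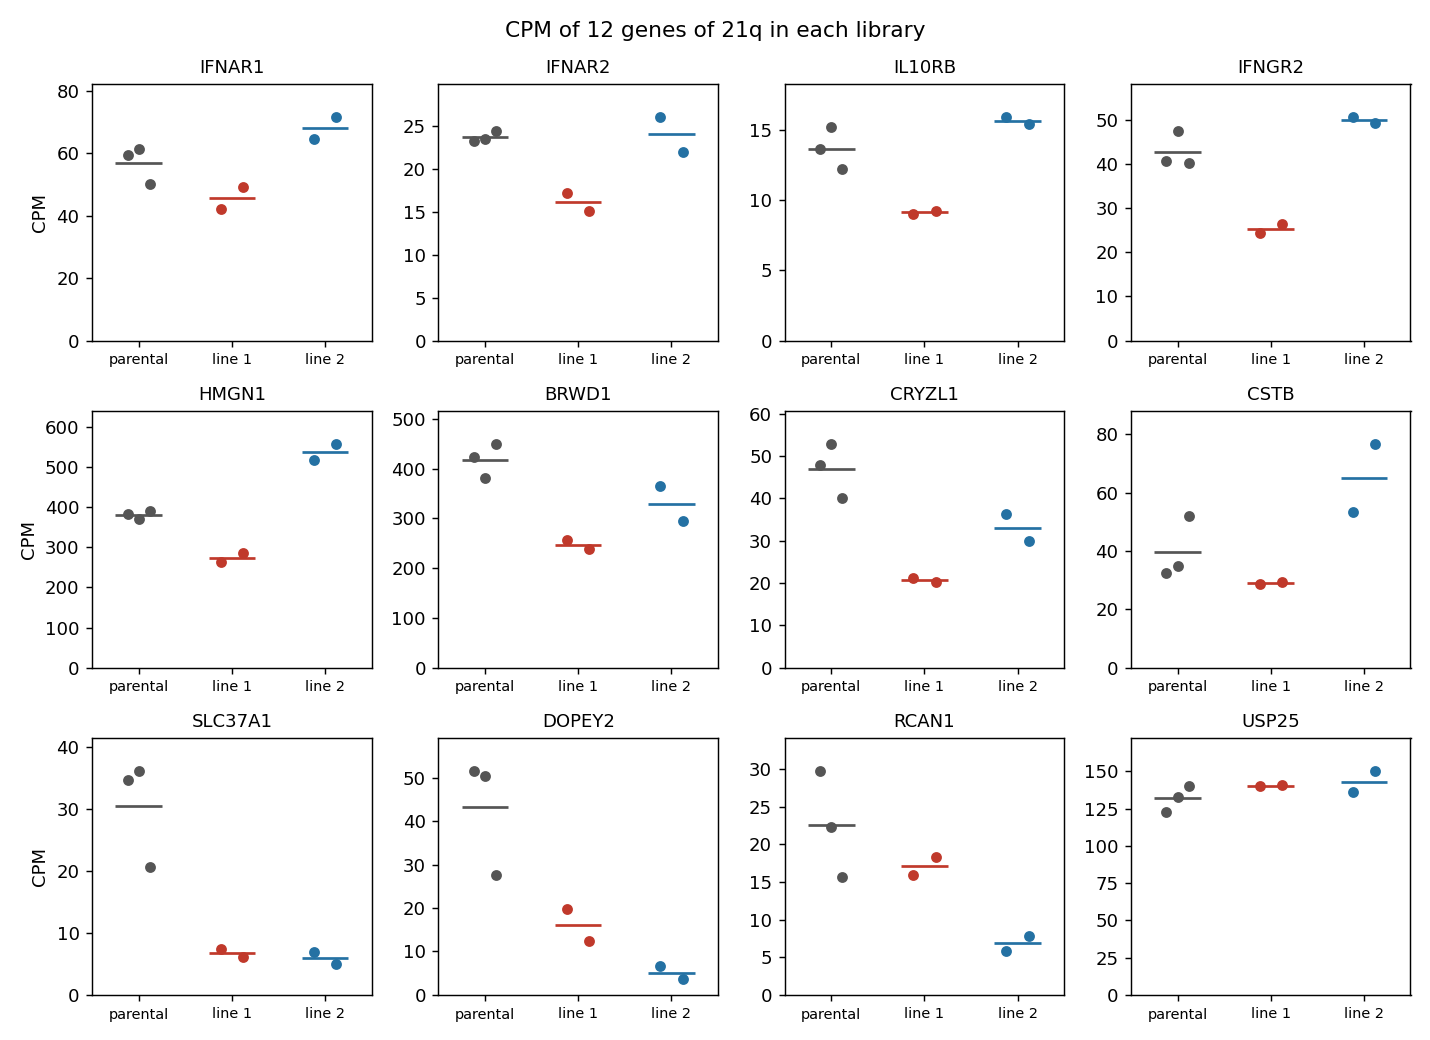
CPM (y axis, from 0) of 12 genes of 21q in each library (points) with the group mean (bar), by group (x axis). The 4 receptors, HMGN1 and CSTB are lowest in line 1 and show group means in line 2 at or above parental, SLC37A1 is low in both lines, DOPEY2 and RCAN1 are lowest in line 2, and USP25, near the centromere, has means of 132, 141 and 143 CPM.

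A cluster of 4 cytokine receptor genes lies in this arm. IFNAR1 and IFNAR2 form the receptor for type I interferon, IFNGR2 is the second chain of the interferon gamma receptor, and IL10RB is shared by the receptors for IL-10, IL-22 and interferon lambda. As a group these 4 had a median of -0.57 in line 1, a ratio of 0.673, and of 0.21 in line 2. IFNGR2 (ENSG00000159128) stood at 40.8, 47.6 and 40.2 CPM in parental, 24.4 and 26.4 CPM in line 1, and 50.7 and 49.4 CPM in line 2. The 3 groups did not overlap, with line 1 lowest and line 2 highest. IFNGR2 had a log2 fold change of -0.75 (SE 0.15) in line 1 and of 0.22 (SE 0.14) in line 2, where it did not pass (adjusted p 0.401 in edgeR).

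IFNAR1 stood at 59.6, 61.3 and 50.2 CPM in parental, 42.0 and 49.1 CPM in line 1, and 64.6 and 71.6 CPM in line 2. IFNAR2 stood at 23.2, 23.5 and 24.4 CPM in parental, 17.2 and 15.1 CPM in line 1, and 26.0 and 22.0 CPM in line 2. IL10RB ran from 12.2 to 15.2 CPM in parental, at 9.02 and 9.25 CPM in line 1 and at 15.9 and 15.4 CPM in line 2. In all 4 genes line 1 lay below every parental library, and in all but IFNAR2 line 2 lay above, though none of the line 2 values passed the test. The fitted line 1 values were -0.33 for IFNAR1, -0.56 for IFNAR2 and -0.58 for IL10RB. Per length these are low transcripts, with parental means of 3.38 to 5.12 FPKM. In the authors' FPKM table IFNAR2 was not lower in line 1, with means of 5.12 FPKM in parental and 5.19 FPKM in line 1. On that scale 41 of the 49 listed genes had a line 1 mean below parental, and SOD1, URB1 and IFNAR2 were below it by CPM only.

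Genes of the same pathway on other chromosomes were read beside them. Of 9 tested genes of interferon and IL-10 receptor signalling, 0 passed in line 1. There 1 was lower and 2 higher at an unadjusted p under 0.05 in edgeR, against 8.05% and 5.4% of all genes. In line 2, 1 fell, beside 4.48% of all genes. That gene was TYK2, a Janus kinase that binds IFNAR1 and IL10RB, at 134, 138 and 164 CPM in parental, 121 and 123 CPM in line 1, and 65.9 and 65.6 CPM in line 2. TYK2 fell in line 2 by a log2 fold change of -1.14 (adjusted p 0.00268 in edgeR), and by -0.89 against line 1 (adjusted p 0.00998). JAK2 and STAT3, the others of this set with the highest CPM, stood at -0.10 and 0.03 in line 1 and at -0.33 and 0.27 in line 2.

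Of 33 listed interferon-stimulated genes (ISGs), which these receptors switch on, 21 were tested. Their median was -0.87 in line 1, with 17 below 0 against 51.0% of all genes, and -0.07 in line 2. In line 1 IFITM2 and PSMB9 fell, beside 1.33% of all genes, and 19 did not pass. There 7 were lower and 1 higher at an unadjusted p under 0.05 in edgeR, against 8.05% and 5.4% of all genes. Some of the 21, such as IFI6 and IFIT2, had means under 1 CPM, with line 1 SEs of 0.82 and 1.47. A link to the receptor levels was not tested. IFITM2, which restricts virus entry, stood at 109, 87.1 and 95.6 CPM in parental and 56.4 and 45.6 CPM in line 1 (log2 fold change -0.93, adjusted p 0.0243 in edgeR), and at 94.1 and 91.4 CPM in line 2. The authors' FPKM table turns its direction in line 1, with a mean of 436 FPKM in parental (highest 472 FPKM), 544 and 581 FPKM in the line 1 libraries and 293 and 347 FPKM in those of line 2. PSMB9, an immunoproteasome subunit, was at 0.789 to 1.60 CPM in parental and 0.0538 and 0.0742 CPM in line 1, at or below the floor of 3 counts. In line 2 USP18, a negative regulator that binds IFNAR2, fell from 1.58 to 2.44 CPM in parental to 0.0137 and 0.0766 CPM (adjusted p 0.00485 in edgeR), also at or below the floor. Most ISGs here were low, and IFITM1, BST2 and IFITM2 were the ones above 40 CPM in each library.

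Genes for transcription, chromatin and replication had a median of -0.41 in line 1 (11 of 12 below 0) and of -0.03 in line 2. None of the 12 passed in line 2. There 0 were lower and 1 higher at an unadjusted p under 0.05 in edgeR, against 12.8% and 8.65% of all genes. HMGN1 (ENSG00000205581), a protein that binds nucleosomes and loosens chromatin, stood at 383.4, 368.8 and 390.6 CPM in parental, 262.5 and 284.7 CPM in line 1, and 516.6 and 556.1 CPM in line 2. The 3 groups did not overlap, with line 2 highest. HMGN1 had a log2 fold change of -0.48 (SE 0.13) in line 1 and of 0.49 (SE 0.13) in line 2, with an adjusted p of 0.0569 in edgeR. It passed in line 2 in 6 of 16 alternatives, with adjusted p from 0.00441 to 0.396 and log2 fold changes of 0.43 to 0.58.

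The related HMGN2, on another chromosome, rose in line 2 from 281, 288 and 271 CPM to 469 and 495 CPM (log2 fold change 0.78, adjusted p 0.00996 in edgeR) and stood at 293 and 251 CPM in line 1 (-0.04). HMGN5 fell in line 2 from 89.1, 128 and 121 CPM to 38.4 and 50.3 CPM (log2 fold change -1.35, adjusted p 0.00681 in edgeR) and stood at 119 and 149 CPM in line 1. Closely related HMGN sequences could share reads, and the treatment of such reads by the authors is not given in the sources used.

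BRWD1 (ENSG00000185658), a bromodomain protein that reads acetylated histones, stood at 424, 381 and 449 CPM in parental, 257 and 238 CPM in line 1, and 366 and 294 CPM in line 2. Both lines lay below the parental libraries, line 1 further, with log2 fold changes of -0.75 (SE 0.15) and -0.34 (SE 0.15), the latter with an adjusted p of 0.239 in edgeR. PAXBP1, which links PAX factors to histone methylation, ran at 175, 179 and 247 CPM in parental, 132 and 140 CPM in line 1, and 204 and 196 CPM in line 2, so only line 1 lay outside the parental range. The other 9 of these genes had line 1 values of -0.54 (MORC3, a chromatin ATPase) to 0.09 (BTG3, an antiproliferative factor). BACH1, a repressor of heme and iron genes, stood at -0.44, and CHAF1B, a subunit of the histone chaperone CAF-1, at -0.35. GABPA and ETS2, both ETS-family transcription factors, stood at -0.08 and -0.23, and MIS18A, which licenses centromeres, at -0.05.

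CCGGAAG, the ETS letters, stood in 15 of the 68 windows (22.1%), against 10.3% of all 35116 windows. AGATAA stood in 8 (11.8%, against 10.3%), and AATCAC in 1 (1.47%, against 10.2%). The windows of the listed genes held more G and C (median 68.0%, against 58.7% over all windows), and its part in these shares was not tested. Windows of 1 gene can overlap, and a match is a description of letters, not of binding. The windows of HMGN1 (minus strand, chr21:39349039-39349338) and IFNGR2 (plus strand, chr21:33403163-33403462), shown because line 1 was lowest and line 2 highest for both with no overlap of the groups, each held 1 match, in capitals.
HMGN1: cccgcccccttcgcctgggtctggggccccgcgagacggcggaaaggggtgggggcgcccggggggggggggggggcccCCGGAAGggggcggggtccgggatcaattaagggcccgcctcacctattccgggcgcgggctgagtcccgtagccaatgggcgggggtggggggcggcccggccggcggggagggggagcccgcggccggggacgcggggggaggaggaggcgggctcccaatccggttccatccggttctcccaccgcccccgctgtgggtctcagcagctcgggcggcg
IFNGR2: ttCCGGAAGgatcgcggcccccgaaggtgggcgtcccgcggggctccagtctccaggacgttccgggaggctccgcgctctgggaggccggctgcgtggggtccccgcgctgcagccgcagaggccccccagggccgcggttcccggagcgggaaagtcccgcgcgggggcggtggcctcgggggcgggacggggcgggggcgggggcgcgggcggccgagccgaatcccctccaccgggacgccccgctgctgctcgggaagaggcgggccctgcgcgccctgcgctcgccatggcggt

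Metabolic and transport genes other than SLC37A1 included CRYZL1 (ENSG00000205758), an oxidoreductase-like protein whose values were singled out after they were seen. CRYZL1 stood at 47.9, 52.8 and 40.0 CPM in parental, 21.2 and 20.3 CPM in line 1, and 36.3 and 29.9 CPM in line 2. Both lines lay below parental and did not overlap each other, with log2 fold changes of -1.17 (SE 0.17) and -0.50 (SE 0.17), the latter with an adjusted p of 0.129 in edgeR. GART, an enzyme of de novo purine synthesis and the listed gene with the most FPKM in parental cells (122), stood at 483, 488 and 451 CPM in parental, 401 and 423 CPM in line 1, and 437 and 512 CPM in line 2. GART in line 1 was thus below parental by a log2 fold change of -0.20, a smaller step than the median.

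SOD1, the cytosolic superoxide dismutase, ran at 237, 264 and 349 CPM in parental, 235 and 312 CPM in line 1, and 280 and 396 CPM in line 2, and all groups overlapped. PDXK, which activates vitamin B6, ran at 123, 113 and 152 CPM in parental, 104 and 93.8 CPM in line 1, and 150 and 167 CPM in line 2. HLCS, which attaches biotin to carboxylases, had log2 fold changes of -0.48 and -0.10 in lines 1 and 2. CBR1, a carbonyl reductase, was the listed gene with the highest line 1 value: 5.83, 5.13 and 6.40 CPM in parental, 7.24 and 8.21 CPM in line 1, and 5.18 and 7.07 CPM in line 2. Line 1 lay above every other library for CBR1, with a log2 fold change of 0.42 (SE 0.25).

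The 10 genes for RNA processing, ribosomes and translation had a line 1 median of -0.18 (9 of 10 below 0), and a line 2 median of 0.38 (10 of 10 above 0). None of the 10 passed in line 2, with 3 higher and 0 lower at an unadjusted p under 0.05 in edgeR. Over all genes 49.2% were above 0 in line 2, and 8.65% were higher at that unadjusted threshold. SON, a scaffold of nuclear speckles needed for splicing and the listed gene with the most counts, ran at 844, 872 and 1122.6 CPM in parental, 766 and 815 CPM in line 1, and 1041.5 and 1181.5 CPM in line 2. RRP1B, a nucleolar protein, ran at 207, 203 and 223 CPM in parental, 152 and 186 CPM in line 1, and 220 and 284 CPM in line 2. For both genes line 1 lay below every parental library, and line 2 overlapped the parental range.

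URB1, a ribosome biogenesis factor, ran at 192.3, 193.3 and 200.1 CPM in parental, 163.2 and 213.2 CPM in line 1, and 198.6 and 310.7 CPM in line 2. Its line 1 libraries lay on either side of parental. MRPS6 and MRPL39, proteins of the mitochondrial ribosome, stood at -0.63 and -0.10 in line 1, and WDR4, which with METTL1 methylates transfer RNA, at 0.15 in line 1 and 0.64 in line 2 (adjusted p 0.157 in edgeR). SLC5A3, the inositol transporter, lies within MRPS6 and has 0 counts in all libraries under both of its identifiers, although the authors' FPKM table lists 1.61 to 7.53 FPKM for it.

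Genes of protein turnover had a median of -0.45 in line 1 (5 of 6 below 0) and of 0.02 in line 2. TTC3, a ubiquitin ligase, was low in both lines, at 454, 503 and 645 CPM in parental, 384 and 324 CPM in line 1, and 369 and 328 CPM in line 2. All 4 edited libraries were below the parental ones, and the line 2 log2 fold change was -0.62 (SE 0.18, adjusted p 0.0884 in edgeR). LTN1, the ubiquitin ligase listerin that clears stalled nascent chains, ran at 176, 181 and 199 CPM in parental, 133 and 134 CPM in line 1, and 162 and 169 CPM in line 2. For LTN1 too both lines lay below parental.

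USP25, a deubiquitinase and the innermost gene of the list, ran at 123, 133 and 140 CPM in parental, 140 and 141 CPM in line 1, and 136 and 150 CPM in line 2, with no library group apart. CSTB (ENSG00000160213), an inhibitor of cathepsins whose values were singled out after they were seen, ran at 32.5, 34.8 and 51.9 CPM in parental, 28.8 and 29.5 CPM in line 1, and 53.5 and 76.6 CPM in line 2. Line 2 lay above and line 1 below every parental library for CSTB, and its line 2 log2 fold change was 0.71 (SE 0.23, adjusted p 0.111 in edgeR). USP16, which removes ubiquitin from histone H2A, stood at -0.45 in line 1 and -0.07 in line 2, and PSMG1, which helps assemble the proteasome, at -0.16 and 0.19.

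Signalling and trafficking genes other than DOPEY2 and RCAN1 did not pass in line 2. DYRK1A, a kinase studied for its dosage in Down syndrome, ran at 170, 161 and 262 CPM in parental, 138 and 142 CPM in line 1, and 187 and 219 CPM in line 2. TRAPPC10, a subunit of a vesicle tethering complex, ran at 89.0, 91.8 and 106 CPM in parental, 78.0 and 94.0 CPM in line 1, and 113 and 130 CPM in line 2. DYRK1A was below parental in line 1, where TRAPPC10 overlapped it, and TRAPPC10 was above parental in line 2. TMEM50B, a membrane protein, ran at 46.1, 44.3 and 111 CPM in parental, where library 3 stood apart, and at 57.7, 35.2, 48.7 and 47.5 CPM in the edited libraries. SYNJ1, a phosphoinositide phosphatase of endocytosis, stood at -0.34 in line 1, and WRB, which inserts tail-anchored proteins into the endoplasmic reticulum, at -0.36.

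The 3 genes of other or unclear function, C21orf91, C21orf59 and RWDD2B, stood at 0.30, -0.26 and -0.50 in line 1. C21orf59, which is linked to cilia, had a parental mean of 11.4 ± 0.576 CPM (SD, n = 3), with line 1 libraries of 9.34 and 9.69 CPM and line 2 libraries of 12.3 and 12.7 CPM. C21orf91 ran at 15.3 to 21.7 CPM in parental, at 24.2 and 23.7 CPM in line 1 and at 16.2 and 16.0 CPM in line 2. The first thus lay below parental in line 1 and the second above. Among the 7 genes not tested, CXADR had 6 to 45 counts per library, PDE9A 0 to 15, and the other 5 at most 4.

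Many products of these genes work in complexes with proteins encoded elsewhere, and 118 such partner genes in 19 sets were read beside them, of which 103 were tested. The partners had a median of -0.06 in line 1 and of -0.02 in line 2. In line 1, 2 were lower (IFITM2 and PSMB9), beside 1.33% of all genes, and 1 higher (UBL4A), beside 0.419%. In line 2, 8 were lower (TYK2, USP18, CHAF1A, ANKZF1, GPX4, HMGN5, PPP3CA and SLC37A2), beside 4.48%, and 1 higher (HMGN2), beside 1.34%. Line 2 over line 1 had 5 lower, beside 4.21%, and 4 higher, beside 2.33%. TYK2, CHAF1A and GPX4 are encoded on chromosome 19, whose protein-coding genes had a line 2 median of -0.21, the lowest of all chromosomes, and its part in these calls was not tested. The 3 calls in line 1 became 0 without line 1 library 1, line 1 library 2, parental 1 or parental 2, and 10 without parental 3. The 9 calls in line 2 became 2 and 3 without its libraries 1 and 2, 4 without parental 1 and 14 without parental 3.

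CHAF1B stood at -0.35 in line 1 while the 4 tested partners in histone H3-H4 assembly had a median of 0.09. Its complex partner CHAF1A was at 190, 216 and 205 CPM in parental, 210 and 233 CPM in line 1, and 128 and 133 CPM in line 2, where it fell by a log2 fold change of -0.64 (adjusted p 0.0235 in edgeR) and CHAF1B stood at -0.05. LTN1 stood at -0.47 in line 1 beside a median of -0.22 over 4 ribosome quality control genes. Of these ANKZF1, which releases stalled chains, fell in line 2 from 169 to 193 CPM in parental to 111 and 99.2 CPM (adjusted p 0.0131 in edgeR).

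WRB stood at -0.36 in line 1 and its 5 partners in tail-anchored protein insertion at a median of -0.01. UBL4A, which hands such proteins on, rose in line 1 from 43.4, 42.0 and 43.5 CPM to 74.7 and 83.5 CPM (log2 fold change 0.88, adjusted p 0.0201 in edgeR). GART was read beside 5 genes of purine synthesis with a median of 0.14, PWP2 (-0.16) beside 5 of its UTP-B complex at 0.17, and PSMG1 (-0.16) beside 4 proteasome assembly chaperones at 0.21. MIS18A (-0.05) stood beside 4 centromere licensing genes at 0.24. None of those 18 partners passed in line 1. There 0 were lower and 1 higher at an unadjusted p under 0.05 in edgeR, against 8.05% and 5.4% of all genes.

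BACH1 represses genes of heme and iron handling and of antioxidant defence. Of 8 listed here 7 were tested, and the other, HMOX1, had at most 2 counts in any library. The 7 had a median of 0.36 in line 1 with none passing. There 0 were lower and 2 higher at an unadjusted p under 0.05 in edgeR, against 8.05% and 5.4% of all genes. FTL, the ferritin light chain, stood at 823, 875 and 1666.6 CPM in parental, 2267.2 and 2326.0 CPM in line 1, and 1138.1 and 1454.4 CPM in line 2. Its line 1 log2 fold change of 1.03 did not pass (adjusted p 0.135 in edgeR). FTL is encoded on chromosome 19, which had the highest line 1 median of all chromosomes, 0.18. The part of BACH1 or of this chromosome in the FTL values was not tested. FTH1, the heavy chain, overlapped between groups and stood at -0.10. Beside SOD1, 8 genes for enzymes against superoxide and peroxide had a median of 0.00 in line 1, and GPX4, which reduces lipid peroxides, fell in line 2 from 323 to 424 CPM to 231 and 247 CPM (adjusted p 0.0492 in edgeR).

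**Figure D4:**
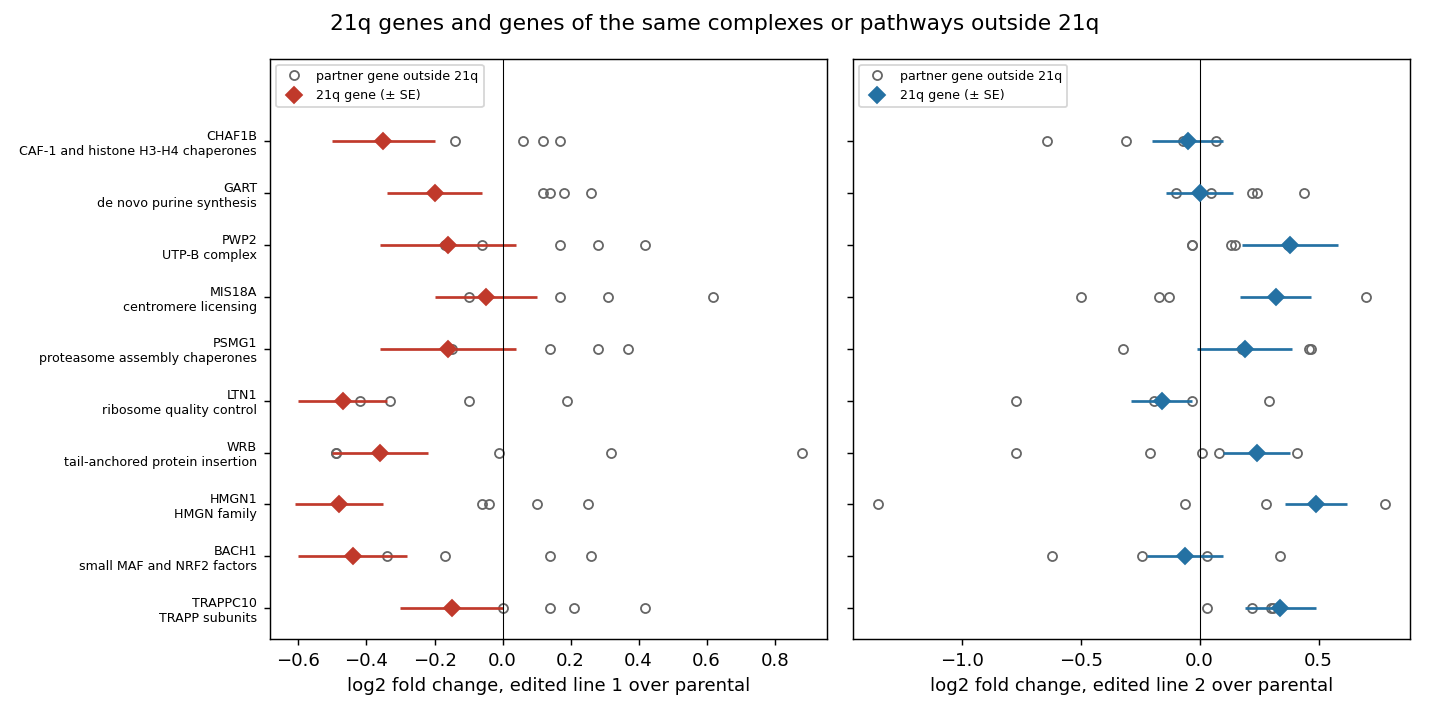
Fitted log2 fold change over parental cells (x axis) in line 1 (left) and line 2 (right) of 10 listed genes (diamonds, ± SE) and of tested partner genes outside 21q (open circles, some hidden by a diamond), 1 set per row. In line 1 the 10 diamonds, from a list that line 1 chose, lie below 0, from -0.48 (HMGN1) to -0.05 (MIS18A). Partners lie on both sides there, and in line 2 the diamonds lie on both sides too. Of the 19 partner sets 10 are drawn. Those not drawn had line 1 medians from -0.87 (interferon-stimulated genes) and -0.53 (calcineurin subunits) up to 0.36 (genes repressed by BACH1).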

How the data were processed

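Poly-A RNA of K562 cells was measured in 7 libraries (stranded TruSeq kit, paired reads, per the labels' protocols). The submitters' processing notes name STAR 2.7.3a and Bowtie2 2.5.1, HTSeq 0.11.2, Cufflinks 2.2.1, DESeq2, cutadapt 2.5, FastQC 0.11.8 and MultiQC 1.7, and the builds GRCh37 and hg19, without roles or settings. Read counts per gene, not normalized, were deposited by the authors with an FPKM table (114 repeated identifiers were summed) and a comparison table with a log2 fold change, its SE and p-values per the file headers.

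The tests of counts used edgeR 4.0.16 (R 4.3.3): filterByExpr by genotype, TMM scaling, and glmQLFit and glmQLFTest with 3 groups in 1 fit. P-values were Benjamini-Hochberg adjusted over 18160 genes, and 0.05 was the threshold. SE is the absolute log2 fold change divided by the square root of F. Position along 21q came from GENCODE 29 on GRCh38, used for gene order only. MORC3 and CHAF1B, and MRPS6 and SLC5A3, overlap on 1 strand, and reads shared between them are uncertain. C21orf59 overlaps AP000275.65, IFNAR2 and IL10RB overlap AP000295.9, and DONSON and CRYZL1 overlap AP000304.12 in the same way. Those overlapping genes did not pass the filter, and the effect of the overlaps on counts was not tested. The listed genes, partner sets and markers were chosen with earlier results of these data known. Values per library are given for the 2 or 3 most abundant genes of each role, SLC37A1, the lowest and highest line 1 values and passes in line 2. Partners are named where they pass, or else by CPM, and others after their values were seen. Alternatives were other scalings, filters and tests (DESeq2 1.42.0, limma 3.58.1), FPKM with pseudocounts of 1 and 0.1, a replicate block and each library left out. Same-numbered libraries had correlated deviations of -0.0971 to 0.302 and are not taken as pairs. In simulated counts of line 2 against parental (17696 genes) the test recovered 28.6% of changes of 1 on the log2 scale, 76.9% of 2 and 84.6% of 3.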

Additional observations from a re-analysis of the deposited data

Results flagged for a closer look

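For 8 of the listed genes, line 1 lay below and line 2 above all 3 parental libraries. This difference between the lines is given as values and not tested, since line 1 chose the genes. Over all genes, line 1 lay below for 16.3% and line 2 above for 18.5%. The share with both was not counted, so the 8 cannot be called many or few. Line 2 over line 1 had log2 fold changes of 0.39 for C21orf59, 0.58 for IFNAR1, 0.78 for IL10RB, 0.98 for IFNGR2, 0.97 for HMGN1, 0.60 for WRB, 1.16 for CSTB and 0.59 for RRP1.

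Among partner genes outside 21q, 9 differed between the lines in edgeR at an adjusted p under 0.05, and HJURP, a centromere chaperone, lay above parental in line 1 and below in line 2 without passing (line 2 over line 1 -0.48). The 9 were lower in line 2 than in line 1 for TYK2 (-0.89), IFITM1 (-0.90), USP18 (-3.50), CHAF1A (-0.76) and HMGN5 (-1.60). They were higher for IFITM2 (0.86), RSAD2 (2.14), PSMB9 (4.37) and HMGN2 (0.83). USP18 and PSMB9 stood at or below the floor of 3 counts in the lower line, where a fitted fold depends on the prior count. The 9 calls became 1 without line 1 library 1, 2 without line 1 library 2, line 2 library 1 or line 2 library 2, and 20 without parental 3.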

How the results depend on the processing

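Over 16 alternatives the listed genes kept a negative median in line 1 and a positive one in line 2 against line 1. In line 1 the median moved to -0.30 and -0.26 on the log2(FPKM + 0.1) and log2(FPKM + 1) scales, -0.33 in limma-voom and -0.29 with the replicate block, and to -0.39 to -0.26 with a library left out. In line 2 it was 0.16 on both FPKM scales, 0.04 with no filter and -0.02 to 0.17 with a library left out, and line 2 against line 1 gave 0.39 and 0.37, 0.40 and 0.37 to 0.53 in the same order. SLC37A1 stood at -1.70 and -1.03 in line 1 on the FPKM scales (-2.37 to -2.04 with a library left out) and at -1.25 in line 2 with a pseudocount of 1 (-2.61 to -2.14). Listed genes lower in line 2, SLC37A1 included, numbered 1 on each FPKM scale, 5 with the replicate block and 2 to 4 with a library left out. Those higher numbered 1 with DESeq2's Wald test, limma-voom, a minimum of 2 CPM or upper quartile scaling, 2 with no filter, 9 with the replicate block and 0 to 2 with a library left out. Partner genes that passed in line 1, in line 2 and between the lines numbered 12, 15 and 15 with DESeq2's Wald test, 14, 19 and 16 with no filter, 20, 35 and 28 with the replicate block, 0, 2 and 1 with FPKM + 0.1 and 0, 2 and 2 with FPKM + 1. With a library left out they numbered 0 to 10, 2 to 14 and 1 to 20. The cause of these differences was not tested. The replicate numbers are not taken as pairs, and every group but parental has 2 libraries, so leaving 1 out assumes that the lone library varies like the others. The 7 untested genes had at most 45 counts per library, and SLC5A3 had 0 beside 1.61 to 7.53 FPKM, so its 0 is not read as a matter of depth.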

Other observations

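Several 21q genes outside the list had larger line 1 values than most listed genes. ITGB2, the beta chain of leukocyte integrins, stood at 4.34, 10.5 and 1.55 CPM in parental, 0.70 and 0.223 CPM in line 1, and 12.5 and 8.10 CPM in line 2. UBASH3A, a regulator of T cell signalling, stood at 0.864 to 4.27 CPM in parental, 0.0538 and 0.396 CPM in line 1, and 4.55 and 7.51 CPM in line 2. Both were low in line 1 alone, with log2 fold changes of -3.57 and -3.40, and their parental libraries spread widely. The lower line 1 library of UBASH3A was under the floor of 3 counts. The lincRNA AP001171.1, on the centromeric side of N6AMT1, stood at -3.24 in line 1 and -0.50 in line 2.

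ITSN1, an endocytic scaffold protein, was low in both lines, as SLC37A1 was. It stood at 33.8, 41.9 and 25.2 CPM in parental, 5.65 and 6.80 CPM in line 1, and 6.65 and 8.89 CPM in line 2. ITSN1 fell in line 2 by a log2 fold change of -2.12 (SE 0.27, adjusted p 0.00291 in edgeR). In gene order it lies beside CRYZL1, the listed gene with the third lowest line 1 value.

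The 6 protein-coding genes of at least 2 CPM outside the list, centromeric to N6AMT1, ran from -0.25 (NCAM2) to 1.09 (RBM11) in line 1. Of these, RBM11, an RNA-binding protein, and SAMSN1, an adaptor protein, fell in line 2. RBM11 stood at 1.44 to 2.53 CPM in parental, 5.22 and 3.16 CPM in line 1, and 0.179 and 0.128 CPM in line 2 (adjusted p 0.00374 in edgeR). SAMSN1, singled out after its values were seen, stood at 238 to 255 CPM in parental, 334 and 305 CPM in line 1, and 145 and 114 CPM in line 2 (adjusted p 0.00811 in edgeR). Among the 21q genes outside the list with a mean of at least 2 CPM, the others with the highest line 1 values were the pseudogenes ANKRD20A11P (1.05) and AP000705.8 (0.51) and the lincRNA AP000705.7 (0.71).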
